A study of Homo sapiens with 8 samples.

Results

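YAP1, WWTR1 (which encodes TAZ), the transcription factors TEAD1 and TEAD4, the target genes CCN1, CCN2, ANKRD1 and AMOTL2 and the kinases LATS1 and LATS2 were examined in RNA-seq data of the clear cell renal cell carcinoma (ccRCC) cell lines A498 and 786-O. These 10 genes of the Hippo pathway were taken by name from 18689 genes, each the sum of its protein-coding RefSeq entries in FPKM (sequenced fragments scaled by transcript length and by the mapped reads of the library). They were compared between the lines, and each siRNA against the long non-coding RNA SLINKY was compared with a non-targeting control (NTC). There were 8 libraries, 4 per line. A498 cells were grown in DMEM and 786-O cells in RPMI-1640. Each line gave 2 NTC libraries and, with knockdown of SLINKY, 1 library for siRNA #1 and 1 for siRNA #2. All cells received 50 nM of siRNA with Lipofectamine 2000, and both the labels and the study's methods give a transfection of 16 h. The methods give a later time after transfection for the collection of RNA. Each line has its own medium, so line and medium cannot be told apart in any comparison between the lines. The labels do not say whether the NTC libraries came from separate cultures, so p-values measure the spread between these libraries, which may be technical.

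YAP and TAZ are coactivators that do not bind DNA themselves. In the nucleus they bind TEAD factors, which recruit them to target genes for growth, adhesion and matrix proteins. The LATS kinases phosphorylate YAP and TAZ and so keep them in the cytoplasm or mark them for degradation, which means that the activity of YAP and TAZ is set largely after their mRNA is made. AMOTL2 and LATS2 are targets of YAP and TAZ that act back on them as inhibitors. In the kidney, the pathway is known for its part in nephron formation and in tubular repair.

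SLINKY was at 14.6 and 16.1 FPKM in the A498 NTC libraries, 1.64 with siRNA #1 and 3.01 with siRNA #2. In 786-O it was at 1.45 and 1.39 FPKM in the NTC libraries, 0.0569 with siRNA #1 and 0.594 with siRNA #2. The deposited 95% intervals of these 786-O values reached up to 2.33 and 2.05 FPKM for NTC, 0.0747 for siRNA #1 and 1.09 for siRNA #2. SLINKY was low in 786-O, so the size of the knockdown there is uncertain. Both siRNA libraries of each line were below both of its NTC libraries, and SLINKY was far lower in 786-O than in A498 with NTC. The renal epithelial factor PAX8 was at 39.2 to 48.1 FPKM in every library, and KRT8, KRT18 and VIM were also expressed in both lines. The ccRCC marker CA9 was at 0.293 to 0.559 FPKM in A498 and at 0 to 0.0229 in 786-O. All 5 endothelial markers stayed under 0.1 FPKM, and the general leukocyte marker PTPRC and the T cell marker CD3E were at 0. The leukocyte list of 5 genes summed to 138 to 151 FPKM in A498 and 2.02 to 5.43 in 786-O, nearly all of it from CD68, a lysosomal protein. The fibroblast list of 5 summed to 2.99 to 3.5 FPKM in A498 and 0.822 to 0.948 in 786-O, with DCN and PDGFRA under 0.1 throughout. COL1A1 made up most of the A498 sum, at 2.87 to 3.42 FPKM against 0.186 to 0.273 in 786-O, and LUM went the other way, at 0 to 0.0208 against 0.493 to 0.677. The part of these lists in the differences between the lines was not tested. Estimated depth was 25026134 to 64411409 mapped reads per library, and each member with a single entry rested on 167 to 26576 reads.

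TEAD factors recruit YAP and TAZ largely at distal enhancers and also at some promoters. The 250 bases before the start of the targets CCN2, ANKRD1 and AMOTL2 are shown with the TEAD letters GGAATG, or their reverse complement CATTCC, in capitals. The sequences are RefSeq's on the GRCh38.p14 build, written on the strand of the gene. CCN2 lies on the minus strand at chr6:131951373-131951622, ANKRD1 on the minus strand at chr10:90921088-90921337, and AMOTL2 on the minus strand at chr3:134374448-134374697, for 1 of its 2 listed starts.
CCN2: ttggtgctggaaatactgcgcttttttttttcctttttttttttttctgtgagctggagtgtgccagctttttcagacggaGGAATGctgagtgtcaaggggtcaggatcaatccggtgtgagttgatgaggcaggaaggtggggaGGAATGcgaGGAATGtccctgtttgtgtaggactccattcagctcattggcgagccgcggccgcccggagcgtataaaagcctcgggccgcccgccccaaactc
ANKRD1: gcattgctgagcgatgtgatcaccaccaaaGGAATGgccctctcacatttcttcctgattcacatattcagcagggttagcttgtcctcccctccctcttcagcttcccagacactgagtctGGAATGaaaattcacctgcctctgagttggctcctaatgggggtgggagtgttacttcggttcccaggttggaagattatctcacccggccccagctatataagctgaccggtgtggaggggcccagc
AMOTL2: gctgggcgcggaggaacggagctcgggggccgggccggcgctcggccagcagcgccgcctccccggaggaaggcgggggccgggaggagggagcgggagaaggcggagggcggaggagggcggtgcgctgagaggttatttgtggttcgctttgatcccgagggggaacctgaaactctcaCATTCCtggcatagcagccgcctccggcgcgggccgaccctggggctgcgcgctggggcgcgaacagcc
The CCN2 window held the TEAD letters 3 times, with first bases at -169, -104 and -95 from the start. At least 3 copies were found in 0.0826% of 35116 RefSeq promoter windows of this length. The ANKRD1 window held 2 copies, at -220 and -128, and at least 2 were found in 0.940% of windows. AMOTL2 had CATTCC at -69, and its other start had no copy in its window. At least 1 copy was found in 11.9% of windows, and YAP1 had 1 as well, at -162. The windows of WWTR1, LATS1 and LATS2 held none. The letters TGANTCA, with any base at N, are looser than the AP-1 site TGA(C/G)TCA. They were in the ANKRD1 window at -195 as TGATTCA, without overlap with the TEAD copies. In 1 of 2 LATS1 windows they were at -245 as TGAATCA. Neither of these is the AP-1 site itself. The looser letters were in 6.57% of windows. The TATA letters TATAAA, searched on the strand of the gene only, were at -32 in CCN2 and at -132 in the other LATS1 window. They were in 6.80% of windows. The ANKRD1 window holds tatataag near the start, a variant that this search did not count. Whether any of these works as a TATA box was not tested. In all, 7 of the 10 genes had 10 windows in the table. CCN1, TEAD1 and TEAD4 had no window, so their letters were not examined.

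YAP1 and WWTR1 were expressed at much the same level in both lines, while the target genes CCN1, CCN2 and ANKRD1 and the factor TEAD4 were higher in 786-O. The targets did not all go this way, since LATS2, a kinase that is also a target, was higher in A498 and AMOTL2 did not pass the test. ANKRD1 was 21.4-fold higher in 786-O, CCN1 was 5.003-fold higher, TEAD4 2.18-fold and CCN2 2.06-fold, all on the log2(FPKM + 0.1) scale. TEAD1 and LATS2 were higher in A498, by 1.41-fold and 1.247-fold, and YAP1 and WWTR1 did not pass the test. The lines were compared with limma on log2(FPKM + 0.1) over the 10501 genes with a mean of at least 1 FPKM, with Benjamini-Hochberg adjustment over all of them and a threshold of 0.05. Of the 10 members, 9 were tested and 6 of these were called, 2 higher and 4 lower in A498. This comparison called 83.8% of all genes tested, 41% higher and 42.8% lower in A498, so the members were not called more often than genes in general. The 4 libraries of one line did not overlap those of the other for 6 of the 9 members and for 77.3% of all genes tested. Over the tested members the median log2 difference of A498 minus 786-O was -0.05, against -0.02 over all genes tested.

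**Figure D1:**
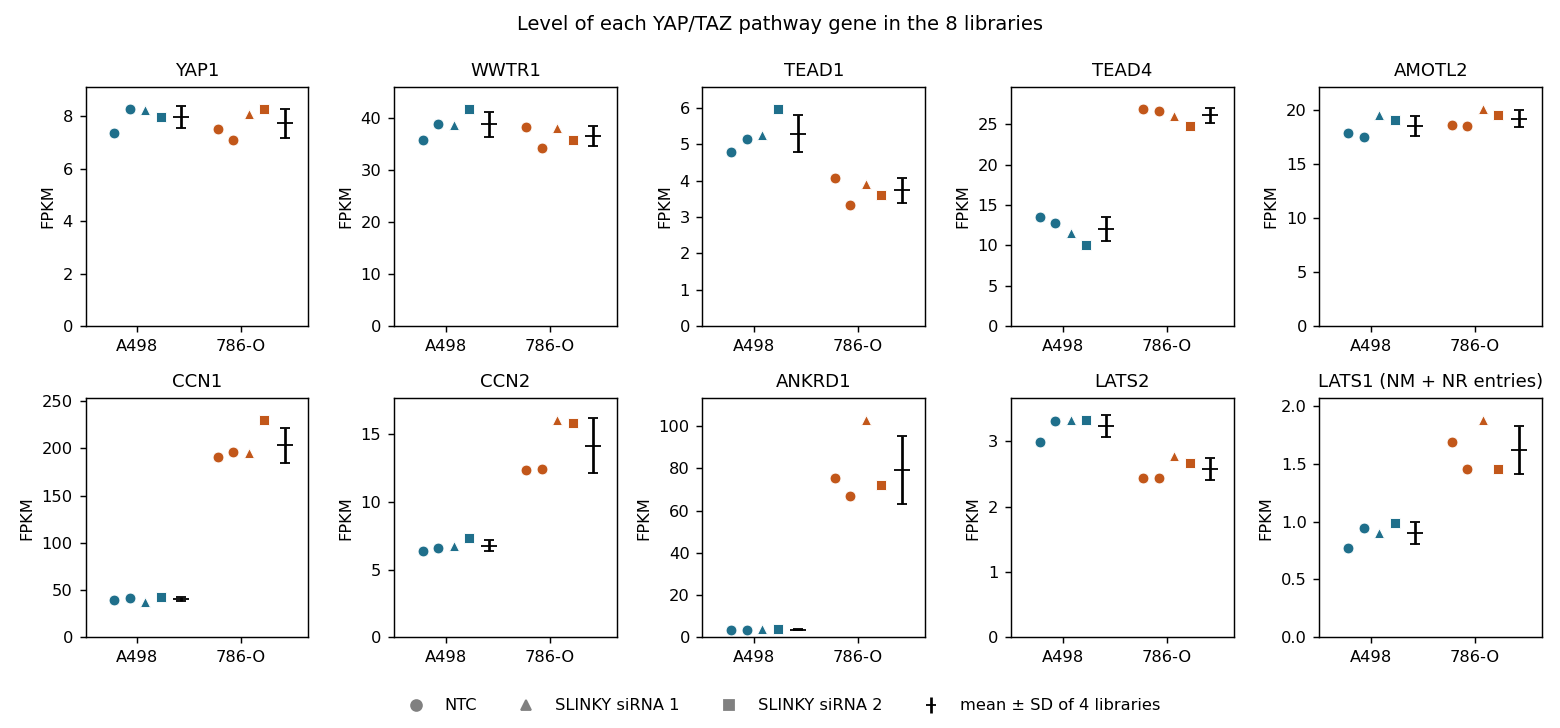
FPKM of each of the 10 genes (y axis, linear, from 0) in the libraries of A498 and 786-O (x axis), with circles for NTC, triangles for SLINKY siRNA #1, squares for siRNA #2 and black bars for the mean ± SD of the 4 libraries of a line, where LATS1 is the sum with its non-coding entry. ANKRD1 lies between 3.21 and 3.83 FPKM in A498 and between 67.0 and 103 in 786-O, while the YAP1, WWTR1 and AMOTL2 libraries of the lines overlap.

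YAP1, on the plus strand of chromosome 11 (101981192 to 102104154, hg19), encodes YAP. Its level in the order NTC 1, NTC 2, siRNA #1 and siRNA #2 was 7.37, 8.28, 8.25 and 7.99 FPKM in A498 and 7.51, 7.09, 8.08 and 8.29 FPKM in 786-O. The ranges of the lines overlap almost entirely. The difference was 0.04 on the log2 scale (SE 0.056, limma adjusted p = 0.484), with a 95% interval from -0.08 to 0.17. An antisense entry, ENSG00000254422 (minus strand of chromosome 11, 102100582 to 102101653, hg19), lies with all its 1072 bases within YAP1 exons. It was at 1.66, 1.08, 0.117 and 1.66 FPKM in A498 and under 0.001 FPKM in every 786-O library, and without strand information its reads and those of YAP1 cannot be told apart.

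WWTR1, on the minus strand of chromosome 3 (149235022 to 149421060), encodes TAZ, the paralog of YAP. It was at 35.7, 38.8, 38.8 and 41.8 FPKM in A498 and at 38.2, 34.1, 38.0 and 35.8 FPKM in 786-O. The lines overlap here too, and the difference was 0.08 on the log2 scale (SE 0.055, limma adjusted p = 0.177), with a 95% interval from -0.04 to 0.21. WWTR1 was the more abundant coactivator in every library. The ratio of WWTR1 to YAP1 in FPKM was 4.87 ± 0.254 (SD, n = 4) in A498 and 4.73 ± 0.321 (SD, n = 4) in 786-O.

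TEAD4, on the plus strand of chromosome 12 (3068478 to 3149842), is a TEAD factor that binds YAP and TAZ. Its level was 13.5, 12.7, 11.6 and 10.1 FPKM in A498 and 26.9, 26.7, 26.1 and 24.9 FPKM in 786-O. Every 786-O library was well above every A498 library. The log2 difference was -1.13 (SE 0.054, limma adjusted p = 7.42e-08). Of all genes tested, 6.64% were at least as far below 0.

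TEAD1, on the plus strand of chromosome 11 (12695969 to 12966284), went the other way. It was at 4.78, 5.15, 5.27 and 5.98 FPKM in A498 and at 4.09, 3.33, 3.91 and 3.62 FPKM in 786-O. The libraries of the lines do not overlap, and the log2 difference was 0.49 (SE 0.082, limma adjusted p = 0.000402).

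The TEAD factor that differed most is not among the 10 genes. TEAD2 was at 22.1, 21.5, 20.6 and 19.9 FPKM in A498 and between 0.00886 and 0.0313 FPKM in 786-O. The log2 difference was 7.46 (SE 0.083, limma adjusted p = 1.82e-11) on the log2(FPKM + 0.1) scale, which understates it since the 786-O level lies below the added 0.1. TEAD3, which was named after its values were seen so that the family is complete, was at 2.99 ± 0.292 FPKM in A498 and 2.13 ± 0.211 in 786-O (SD, n = 4 each). Its log2 difference was 0.47 (SE 0.086, limma adjusted p = 0.000715).

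Together the TEAD factors reached 41.3 ± 2.19 FPKM in A498 and 32.0 ± 0.980 in 786-O (SD, n = 4 each). The sum was higher in A498 while TEAD4 alone was higher in 786-O. TEAD2 made up 51.0% ± 0.455 of the sum in A498 and 0.0631% ± 0.0312 in 786-O. TEAD4 made up 28.9% ± 2.11 in A498 and 81.6% ± 0.837 in 786-O. The share of TEAD1 was 12.9% ± 1.93 in A498 and 11.7% ± 0.936 in 786-O (SD, n = 4 for each share). These shares were not tested.

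**Figure D2:**
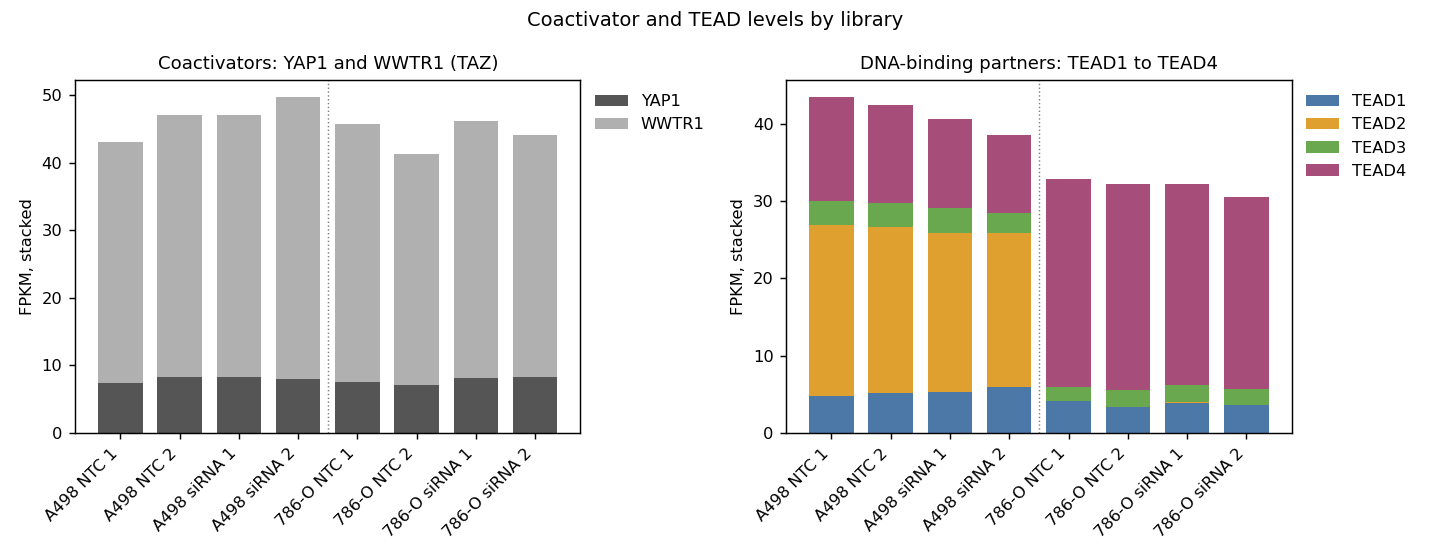
Stacked FPKM (y axis, linear, from 0) of YAP1 and WWTR1 (left) and of TEAD1 to TEAD4 (right) in each of the 8 libraries (x axis). The coactivator sums run from 43.1 to 49.8 in A498 and 41.2 to 46.1 in 786-O, while TEAD2 is a mean of 51.0% of the TEAD sum in A498 and is too low to be seen in 786-O, where TEAD4 is 81.6%.

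ANKRD1, on the minus strand of chromosome 10 (92671857 to 92681032), encodes a cardiac ankyrin repeat protein and is a widely used readout of YAP and TAZ. It was at 3.21, 3.46, 3.83 and 3.75 FPKM in A498 and at 75.4, 67.0, 103 and 72.3 FPKM in 786-O. The lowest 786-O library was far above the highest A498 library. The log2 difference was -4.42 (SE 0.078, limma adjusted p = 1.32e-10), and 0.7999% of all genes tested were at least as far below 0. The A498 values rested on 302, 225, 240 and 167 reads.

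CCN1 (CYR61), on the plus strand of chromosome 1 (86046444 to 86049648), encodes a secreted matricellular protein. It was at 39.6, 41.7, 37.8 and 42.7 FPKM in A498 and at 191, 197, 195 and 230 FPKM in 786-O. The log2 difference was -2.32 (SE 0.042, limma adjusted p = 1.54e-10), with 1.76% of all genes at least as far below 0. CCN1 had the highest level of the 10 genes in 786-O, and in A498 its range overlapped that of WWTR1.

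CCN2 (CTGF), on the minus strand of chromosome 6 (132269317 to 132272518), encodes a related matricellular protein that promotes fibrosis. It was at 6.37, 6.63, 6.75 and 7.36 FPKM in A498 and at 12.3, 12.4, 16.1 and 15.8 FPKM in 786-O. The lines do not overlap. The log2 difference was -1.04 (SE 0.061, limma adjusted p = 2.71e-07), and 7.72% of all genes tested were at least as far below 0. An entry that overlaps its exons by 313 bases stayed between 0 and 0.0730 FPKM.

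AMOTL2, on the minus strand of chromosome 3 (134074190 to 134093406), encodes an angiomotin-like protein that binds YAP and TAZ. Its level was 17.9, 17.6, 19.6 and 19.0 FPKM in A498 and 18.6, 18.5, 20.1 and 19.6 FPKM in 786-O. Unlike CCN1, CCN2 and ANKRD1, it overlapped between the lines. The log2 difference was -0.05 (SE 0.036, limma adjusted p = 0.194), with a 95% interval from -0.14 to 0.03.

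LATS2, on the minus strand of chromosome 13 (21547176 to 21635722), encodes a kinase that phosphorylates YAP and TAZ. It was at 2.99, 3.31, 3.33 and 3.32 FPKM in A498 and at 2.43, 2.43, 2.78 and 2.67 FPKM in 786-O. The A498 libraries were all higher, and the log2 difference was 0.32 (SE 0.059, limma adjusted p = 0.000835).

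LATS1, on the minus strand of chromosome 6 (149979289 to 150039392), encodes the other LATS kinase. Its coding entries summed to 0.769, 0.293, 0.305 and 0.0334 FPKM in A498 and to 0.145, 0.331, 0.09997 and 0.456 FPKM in 786-O. The mean of 0.304 FPKM was below the filter, so LATS1 was not tested. Its reads were divided between 2 coding entries and 1 non-coding entry that shares exons with them. The non-coding entry took 0.00626% of the LATS1 signal in A498 NTC 1, and 96.6% in A498 with siRNA #2. With all 3 entries summed, an alternative chosen after seeing the data, LATS1 was at 0.769, 0.947, 0.902 and 0.991 FPKM in A498 and at 1.69, 1.46, 1.88 and 1.45 FPKM in 786-O. On this sum it was higher in every 786-O library, with a log2 difference of -0.78 (SE 0.118, limma adjusted p = 0.000813). On the coding entries alone, with no filter, the log2 difference was 0.16 (SE 0.623, limma adjusted p = 0.833).

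**Figure D3:**
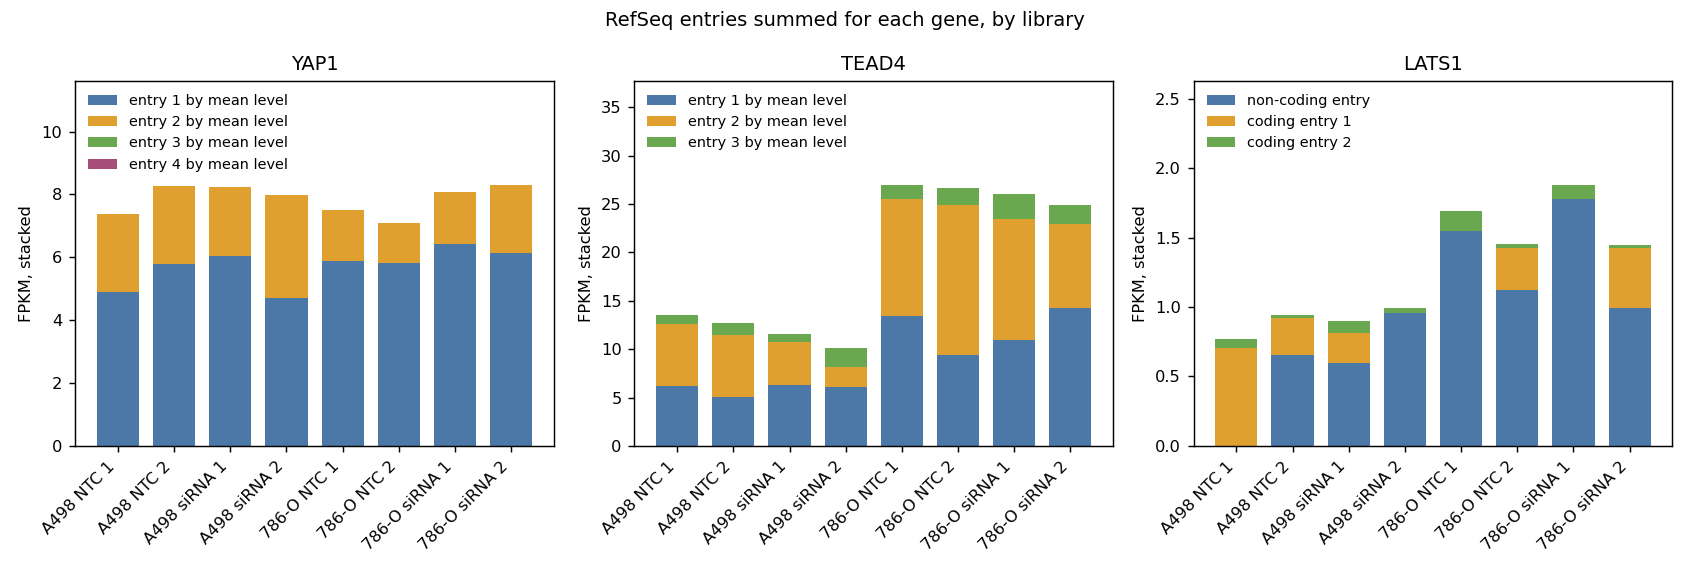
Stacked FPKM (y axis, linear, from 0) of the RefSeq entries that were summed for YAP1, TEAD4 and LATS1 in each of the 8 libraries (x axis), with 1 colour per entry. For LATS1 the split between the coding and the non-coding entry changes from library to library, while the sum of all 3 entries lies between 0.769 and 0.991 in A498 and between 1.45 and 1.88 in 786-O.

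Reads of YAP1 and TEAD4 were also divided between entries, but all of these are coding, so their sums hold every entry. For YAP1, the entry NM_001195045 took 58.7% to 73.3% of the signal in A498 and 74.0% to 82.1% in 786-O, and NM_006106 took nearly all of the rest. For TEAD4, NM_003213 took 20.6% to 50.0% in A498 and 34.9% to 58.3% in 786-O. With reads of 36 bases and 1 end, these shares are estimates by the authors' software. For WWTR1, NM_001168280 took 96.8% to 100% in every library.

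Ordered by FPKM, the genes in A498 ran CCN1, WWTR1, AMOTL2, TEAD4, YAP1, CCN2, TEAD1, ANKRD1, LATS2 and LATS1. In that order CCN1 and WWTR1 overlapped, as did ANKRD1 and LATS2. In 786-O the order was CCN1, ANKRD1, WWTR1, TEAD4, AMOTL2, CCN2, YAP1, TEAD1, LATS2 and LATS1, and no neighbours overlapped. ANKRD1 thus moved from the eighth place in A498 to the second in 786-O.

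Genes with the most similar profiles over the 8 libraries were found from the root mean square difference of log2(FPKM + 0.1), each profile centred on its own mean, over the genes tested other than those of the Y chromosome. For CCN1 they were ADAMTS9 (0.074), AK4 (0.082) and MARCHF3 (0.087). For CCN2 they were NFKBIZ (0.064), HOXC8 (0.070) and RSRP1 (0.075). For ANKRD1 they were FBXL7 (0.167), CHRDL1 (0.176) and SKAP1 (0.179), and for YAP1 TMED10 (0.033), STEEP1 (0.038) and ADNP (0.038). The genes nearest to CCN1, CCN2 and ANKRD1 share their difference between the lines, which follows from the measure, since the compared profiles include it. In A498, FBXL7 was at 0 to 0.0130 FPKM and CHRDL1 at 0 to 0.0319. These levels lie below the added 0.1, so the likeness of these genes to ANKRD1 depends on that choice. YAP1 and its nearest genes differed little between the lines, so their likeness rests on smaller variation between libraries.

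Of 17 other YAP and TAZ target genes, all were tested and 15 were called between the lines, 6 higher and 9 lower in A498. Over all genes tested 83.8% were called, 41% higher and 42.8% lower. The median log2 difference of these targets was -0.20, against -0.02 over all genes tested. TGFB2, a growth factor of the TGF-beta family, was at 4.23 to 5.39 FPKM in A498 and 16.2 to 21.2 in 786-O. F3, the tissue factor that starts coagulation, was at 9.23 to 11.4 FPKM in A498 and 34.9 to 39.4 in 786-O. The receptor tyrosine kinase AXL was 1.86-fold, the RNA-binding protein gene RBMS3 2.35-fold and FJX1 1.66-fold higher in 786-O.

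The opposite direction was also present among the targets. FOXF2, a forkhead transcription factor, was at 5.89 to 6.25 FPKM in A498 and at 0 to 0.0139 in 786-O. DOCK5, which activates Rac, was 2.76-fold higher in A498, MYOF, a ferlin of membrane repair, 2.03-fold, the kinase gene NUAK2 1.87-fold and IGFBP3, a binding protein of insulin-like growth factors, 1.70-fold. For each of these targets limma's adjusted p was 1.42e-06 or lower.

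Of 41 other genes of the Hippo pathway, 35 were tested, and 15 were higher and 15 lower in A498, with a median log2 difference of 0.12. The shares over all genes tested were 41% higher and 42.8% lower. Beside TEAD2, the largest differences toward A498 were those of SAV1, the scaffold of the kinases upstream of LATS, at 2.89 to 3.10 FPKM in A498 and 0.358 to 0.428 in 786-O, and of FAT1, an atypical cadherin, at 5.58 to 6.46 and 1.19 to 1.39 FPKM. PPP2R1A, a scaffold subunit of the phosphatase PP2A, was 1.996-fold and WWC2, of the KIBRA family, 1.82-fold higher in A498. Positive regulators upstream of LATS1 and LATS2, such as SAV1 and FAT1, were among the genes higher in A498. Genes that act to restrain YAP and TAZ, such as CRB3 and AMOT, were also among those higher in 786-O. The activity of the pathway was not tested.

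Toward 786-O, SIKE1, CRB3, RASSF1, AMOT and FGFR1OP2 differed most. RASSF1, a scaffold that binds the upstream kinases, was at 15.6 to 17.5 FPKM in A498 and 31.9 to 37.5 in 786-O. AMOT, the relative of AMOTL2 that also binds YAP, was at 0.659 to 0.739 FPKM in A498 and 1.32 to 1.72 in 786-O. The polarity gene CRB3 was 2.34-fold higher in 786-O, and FGFR1OP2 1.80-fold. SIKE1 was called with a 2.92-fold difference (limma adjusted p = 0.00156), but its A498 libraries ran from 0.904 to 4.47 FPKM and overlapped the 786-O range of 4.15 to 6.26.

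Immediate early genes, several of which encode the AP-1 factors that share enhancers with TEAD, were examined beside the targets. Of 14, 10 were tested, and 7 were higher and 3 lower in A498, with a median log2 difference of 0.35, against 41% higher and 42.8% lower over all genes tested. FOSB was at 1.64 to 2.04 FPKM in A498 and 0.119 to 0.237 in 786-O, and ATF3 at 42.2 to 47.7 and 5.91 to 7.88 FPKM. JUNB was 1.72-fold, IER2 1.32-fold and JUN 1.31-fold higher in A498. In 786-O, SRF, the factor of the serum response, was 2.25-fold, FOSL1 2.15-fold and MYC 1.15-fold higher.

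**Figure D4:**
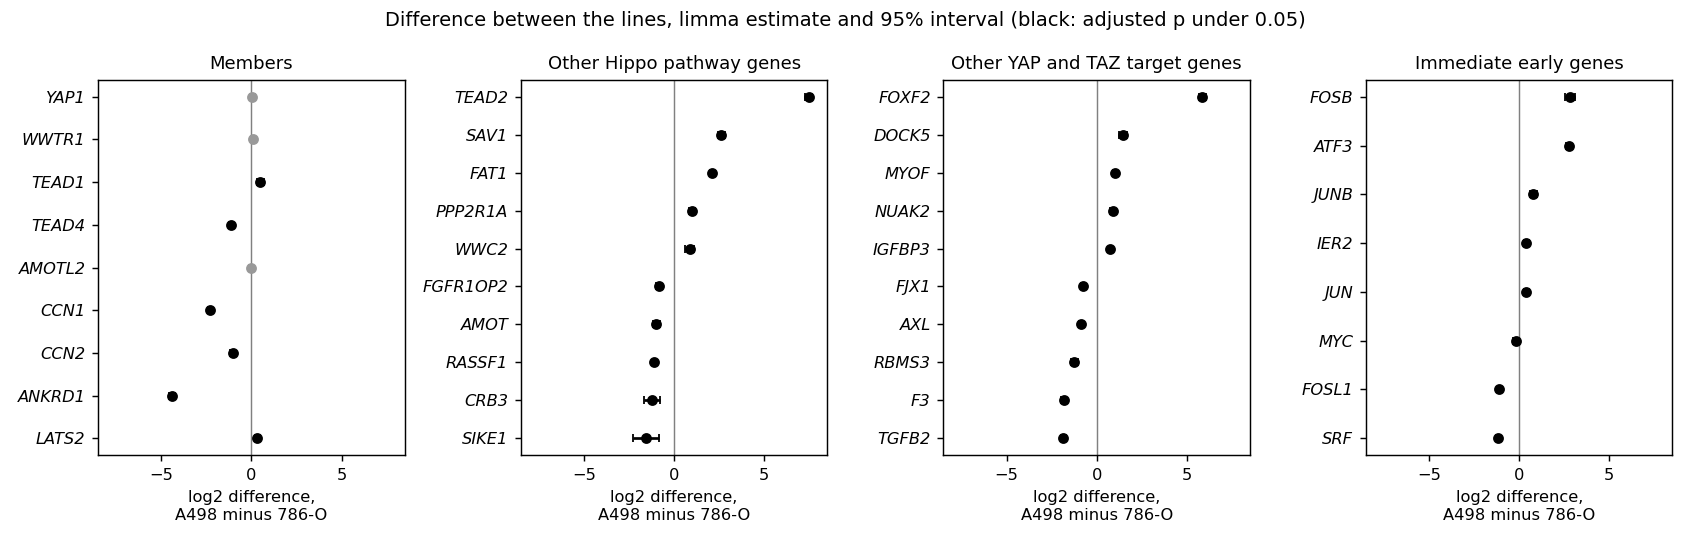
Difference between the lines (x axis, log2 of A498 minus 786-O on log2(FPKM + 0.1), limma estimate with its 95% interval, often narrower than the point) for the 9 tested members and for the genes of the other lists that differed most in each direction (y axis), with genes past the adjusted threshold in black and others in grey. Among the members the estimates run from -4.42 for ANKRD1 to 0.49 for TEAD1, and YAP1, WWTR1 and AMOTL2 are grey at 0.04, 0.08 and -0.05.

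Knockdown of SLINKY was compared with NTC over both lines. None of the 9 tested members passed the adjusted threshold for siRNA #1, siRNA #2, both siRNAs together or the interaction of knockdown and line. In limma, siRNA #1 called 36 of all genes tested (0.343%), siRNA #2 called 3 (0.0286%), both together 6 (0.0571%) and the interaction 1 (0.00952%). At an unadjusted p under 0.05, siRNA #1 gave 3 members (AMOTL2, ANKRD1 and CCN2) against 10.6% of all genes. siRNA #2 gave 3 (CCN1, CCN2 and TEAD4) against 13.5%, both together 4 (AMOTL2, ANKRD1, CCN2 and TEAD4) against 13.2%, and the interaction 1 (CCN2) against 1.82%. The lowest adjusted p among the members was 0.225 for siRNA #1, 0.294 for siRNA #2 and 0.228 for both. The siRNAs share their NTC libraries, so their values are not independent.

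The intervals over both lines and both siRNAs give the range of change for the members with no unadjusted p under 0.05. For YAP1 the log2 difference of both siRNAs from NTC was 0.11, with a 95% interval from -0.02 to 0.24, and for WWTR1 it was 0.07, from -0.05 to 0.20. TEAD1 was at 0.10, from -0.09 to 0.29. CCN1 was at 0.06, from -0.04 to 0.15, and LATS2 at 0.12, from -0.02 to 0.25. None of these intervals over both lines reaches a level 25% above or 20% below NTC. Intervals within a line or for 1 siRNA are wider and do not share this bound. Those within a line treat both siRNAs as replicates of the same knockdown. In 786-O they run up to 0.34 for YAP1, 0.33 for CCN1 and 0.36 for LATS2 on the log2 scale, and TEAD1 runs up to 0.44 in A498 and 0.35 for siRNA #2, all above a level 25% over NTC.

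CCN2 differed most from NTC toward higher values, at 0.24 on the log2 scale (SE 0.061, 95% interval 0.10 to 0.38, limma adjusted p = 0.228). Both siRNA libraries of each line were above both of its NTC libraries. In 786-O the ratio to the NTC mean was 1.29 with siRNA #1 and 1.27 with siRNA #2, and in A498 it was 1.04 and 1.13. Within 786-O the log2 difference was 0.36 (SE 0.070, limma adjusted p = 0.421), and within A498 it was 0.12 (SE 0.070, adjusted p = 0.774). Both values treat the siRNA #1 and siRNA #2 libraries of a line as replicates of the same knockdown. The interaction was -0.25 (SE 0.098, limma adjusted p = 0.9998).

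ANKRD1 was at 0.23 (SE 0.078, 95% interval 0.05 to 0.41, limma adjusted p = 0.302). Without the 786-O siRNA #1 library it was at 0.13, and for siRNA #1 at 0.17 in place of 0.36. The ratio to NTC was 1.14 and 1.12 in A498 for siRNA #1 and #2, and 1.45 and 1.02 in 786-O. The siRNA #2 library of 786-O, at 72.3 FPKM, lay between its NTC libraries. AMOTL2 was at 0.11 (SE 0.036, 95% interval 0.03 to 0.19, limma adjusted p = 0.301), with ratios of 1.05 to 1.10 in all 4 siRNA libraries.

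TEAD4 was the member that was lower, at -0.18 (SE 0.054, 95% interval -0.30 to -0.05, limma adjusted p = 0.277). All 4 siRNA libraries were below the NTC libraries of their line. With the highest entry in place of the sum the value was -0.079, and for siRNA #2 it was -0.042 in place of -0.24. In A498 with siRNA #2, the TEAD4 entry NM_003213 was at 2.08 FPKM with a deposited interval from 0 to 5.93. The NTC level was 1.14-fold and 1.30-fold that of siRNA #1 and #2 in A498, and 1.03-fold and 1.08-fold that in 786-O. For CCN1 the ratio of siRNA #2 to NTC was 1.05 in A498 and 1.19 in 786-O, and the siRNAs were not tested against each other. With siRNA #1 it was inside the NTC range in 786-O and below it in A498.

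In both lines all siRNA libraries lay above all NTC libraries for 3 members (CCN2, AMOTL2 and LATS2), as they did for 6.74% of all genes tested. They lay below for 1 member, TEAD4, against 4.97% of all genes. More than 25% above or 20% below the NTC mean of their line were 2 members for siRNA #1 in 786-O (CCN2 and ANKRD1, against 5.9% of all genes), 1 for siRNA #2 in 786-O (CCN2, against 3.92%), 1 for siRNA #2 in A498 (TEAD4, against 5.49%) and 0 for siRNA #1 in A498 (against 3.81%). Each of these ratios rests on 1 siRNA library and has no replicate. The median log2 difference of the tested members was 0.11 for both siRNAs together, against 0.01 over all genes tested.

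**Figure D5:**
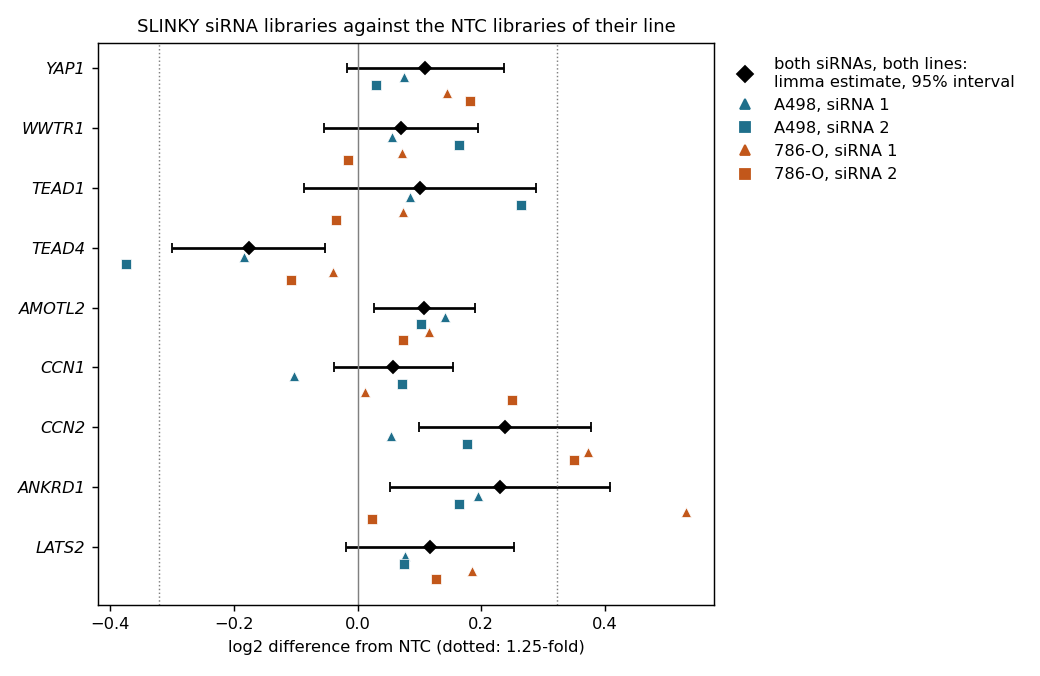
Log2 difference from NTC (x axis) of the 9 tested members (y axis), as the limma estimate over both siRNAs and both lines with its 95% interval (black) and as single siRNA libraries against the NTC mean of their line (coloured, no replicate), with dotted lines at 25% above and 20% below that mean. All 4 libraries lie above 0 for CCN2, AMOTL2, ANKRD1, LATS2 and YAP1 and below 0 for TEAD4, and the estimates run from -0.18 to 0.24.

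No gene of the other lists was called for either siRNA, for both together or for the interaction. For both siRNAs together, an unadjusted limma p under 0.05 was found for 5 of 35 other Hippo pathway genes, 2 of 17 other targets and 2 of 10 immediate early genes, against 13.2% of all genes tested. The median log2 differences were 0.05, 0.04 and 0.03 in these lists, against 0.01 over all genes tested.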

How the data were processed

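RNA-seq libraries of A498 and 786-O cells (8 in all) were analysed from the tables the authors deposited. The authors mapped single-end reads of 36 bases to hg19, and TopHat2 2.0.0 and Cufflinks 2.0.2 are named in the submitters' processing notes. The deposited values are FPKM per entry with a 95% interval, computed in each library alone, and Cufflinks divides reads between overlapping entries. The library kit named by the study does not mark strand.

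Of 35951 protein-coding (NM) entries, 97.7% were matched to symbols of a RefSeq table (GRCh38.p14, names only) and summed per symbol. Genes with a mean of at least 1 FPKM were tested with limma 3.58.1 (R 4.3.3) on log2(FPKM + 0.1), with a variance trend, cell line and transfection (NTC, siRNA #1, siRNA #2) as terms and all 8 libraries. The interaction and the knockdown values within a line came from a model of 4 cell means. That model treats siRNA #1 and siRNA #2 of a line as replicates of the same knockdown. Folds named between the lines are from these fits. Depth was estimated from olfactory receptor entries with few reads, and read numbers were taken from the deposited intervals, and they were whole within 0.1 read for 31 of 48 values of the 6 members with 1 entry. The fits were tested on simulated data. Python 3.11.15, pandas 2.3.3 and matplotlib 3.10.9 were used.

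The members and lists were chosen with earlier results of these data known. Named were all members, the up to 5 genes of each other list that differed most in each direction among those called between the lines, any called for an siRNA, and the 3 nearest profiles of CCN1, CCN2, ANKRD1 and YAP1. Genes of the Y chromosome were left out of the profiles after the values were seen. Alternatives were other pseudocounts, no filter, rescaling, the highest entry per gene, no variance trend, a replicate block, NTC libraries alone, each library left out, no genes under 200 bp and, chosen after seeing the data, the added non-coding (NR) entries and a crossed block.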

Additional observations from a re-analysis of the deposited data

How the results depend on the processing

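The members called between the lines numbered 6 under every alternative over coding entries and 7, with LATS1, when NR entries were added, and no member was called for an siRNA or the interaction under any alternative. Members changed direction only in comparisons where they had not passed the test. With the highest entry in place of the sum, YAP1 was at -0.18 between the lines and -0.056 for siRNA #2, and the TEAD4 interaction at 0.073. With each library left out in turn, YAP1 between the lines ran from -0.00088 (without A498 NTC 2) to 0.075. For siRNA #2, WWTR1 ran from -0.016 to 0.17, TEAD1 from -0.026 to 0.26 and ANKRD1 from -0.031 to 0.22, each lowest without the A498 siRNA #2 library. The interaction ran from -0.00094 (without 786-O NTC 1) to 0.16 for WWTR1 and from -0.35 (without 786-O siRNA #2) to 0.16 (without 786-O siRNA #1) for ANKRD1. The cause was not tested in any of these.

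Counts over all genes changed more. Genes called for siRNA #1 numbered 36, and 57 with a pseudocount of 1, 1 with no filter, 2 with the highest entry, 8 with no variance trend and 8 with NR entries. For siRNA #2 there were 3, and 0 with no filter and 1 with the highest entry or no variance trend. For both siRNAs there were 6, and 0 with no filter, the highest entry, no variance trend or knockdown as 1 term. The interaction had 1, and 0 with a pseudocount of 1, 4 with no filter and 16 with NR entries. With 1 library left out, these counts ran from 3 (A498 NTC 2) to 32 for siRNA #1, from 1 to 12 (786-O siRNA #2) for siRNA #2, from 0 to 18 (786-O siRNA #2) for both and from 1 to 6 (A498 siRNA #1) for the interaction. Where this left an arm with 1 library, that library was assumed to vary like the others.

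Whether the replicate numbers pair the libraries could not be settled, since for the siRNA libraries the number also names the siRNA. The NTC 1 minus NTC 2 differences of A498 and 786-O had a correlation of -0.256 over genes, and those with siRNA #1 minus #2 had 0.2545 in A498 and -0.031 in 786-O. With a replicate block the counts were 3, 1, 0 and 1 for siRNA #1, siRNA #2, both and the interaction, and 8671 in place of 8796 between the lines. With the numbers crossed, 9020 genes and 6 members were called between the lines. Each siRNA had 1 library per line, so its value within a line had no replicate.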
